A study of Mus musculus with 2 samples.

Results

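The YTH domain family of readers of N6-methyladenosine was followed in X63/0 cells, the mouse plasmacytoma line X63-Ag8.653, either left untreated or exposed for 3 h to 30 mM cycloleucine. Its members are the genes Ythdf1, Ythdf2, Ythdf3, Ythdc1 and Ythdc2, found by symbol as 5 of the 43346 features of the deposited gene table. Cycloleucine blocks methionine adenosyltransferase, which makes S-adenosylmethionine (SAM). Both cultures grew in the same medium with fetal bovine serum, antibiotics and 2-mercaptoethanol. RNA depleted of ribosomal RNA was sequenced from 1 library per group, so the differences below cannot be set against replicates and carry no p-values. The series' design text describes an experiment done in triplicate, and 2 libraries in all were analysed here.

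N6-methyladenosine is written into RNA by a nuclear complex that uses SAM as its methyl donor. YTH domains bind the methylated base in a pocket of aromatic residues. The YTHDF proteins are cytoplasmic readers: YTHDF2 brings the CCR4-NOT deadenylase to its target mRNAs, and YTHDF1 and YTHDF3 have been linked to translation and to decay. YTHDC1 is the nuclear reader and has been linked to splicing, export and nuclear decay of methylated RNA. YTHDC2 carries an RNA helicase as well as a YTH domain, binds the exonuclease XRN1 and is needed for meiosis in germ cells.

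Gene reads numbered 27127865 untreated and 31951946 with cycloleucine, of which 64.5% and 62.97% were uniquely placed. The family took 6687 and 9511 of these reads. Of 10 plasma cell markers, 9 were measured, and their summed level was 839 RPKM untreated and 843 RPKM with cycloleucine, while Cd38 had 4 and 2 reads. Markers of other cells were near the floor, with sums of 0.419 and 0.534 RPKM over 5 T cell genes, among which Cd3d was at 0 in both, 0.302 and 0.288 over 4 myeloid genes, and 0.277 and 0.267 over 5 fibroblast genes. RPKM counts exon reads per kilobase of exon, scaled by the gene reads of the library.

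All 5 members passed the filter on low values, which asked for 1 RPKM in 1 of the libraries and 50 exon reads in total and which 9613 features passed. Of the 5, 1 was at least 1.5-fold higher in the cycloleucine library, Ythdc1, where 3.03% of the 9613 features were. No member was at least 1.5-fold lower, where 2.47% of the features were. Ythdc1 stood at 3.59 RPKM untreated and 7.23 RPKM with cycloleucine, a ratio of 2.01 (95% counting interval 1.87 to 2.17). The other 4 members lay between 1.24-fold lower and 1.16-fold higher. In bulk RNA, a different level in every cell and a different share of cells at a high level cannot be told apart.

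The sequences just upstream of Ythdc1, the member that differed most, and of Ythdf1 and Ythdf2, the highest members, are shown so that they can be read side by side. They come from RefSeq's promoters on GRCm38.p6, which held 3 of the 5 members, and cover 250 to 51 bases before the RefSeq start site. The Ythdc1 window is chr5:86804016-86804215 on the plus strand. The Ythdf1 window is chr2:180920987-180921186 and the Ythdf2 window chr4:132212307-132212506, both on the minus strand. All 3 lie outside the genes as the deposited table draws them. Capitals mark TGACGT, the core of a cyclic AMP response element, or its reverse complement ACGTCA. This motif was chosen for marking after the sequences were seen.
Ythdc1: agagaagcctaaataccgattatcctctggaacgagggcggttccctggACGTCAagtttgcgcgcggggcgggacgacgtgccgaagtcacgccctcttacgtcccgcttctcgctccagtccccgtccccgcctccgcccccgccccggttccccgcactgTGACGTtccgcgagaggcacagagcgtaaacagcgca
Ythdf1: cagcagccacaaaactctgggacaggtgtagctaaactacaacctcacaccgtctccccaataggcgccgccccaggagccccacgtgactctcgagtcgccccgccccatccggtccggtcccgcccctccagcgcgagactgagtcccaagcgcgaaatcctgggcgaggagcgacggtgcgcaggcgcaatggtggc
Ythdf2: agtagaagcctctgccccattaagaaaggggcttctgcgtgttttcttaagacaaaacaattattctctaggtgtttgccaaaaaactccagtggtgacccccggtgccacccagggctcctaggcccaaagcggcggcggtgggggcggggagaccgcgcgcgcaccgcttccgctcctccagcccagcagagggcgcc
The Ythdc1 window held 2 matches to TGACGT on both strands together, and the other 2 windows held 0. Of 32851 promoter windows of the same length, 4.16% held at least 1 match and 0.928% at least 2. The 2 Ythdc1 matches lie apart and share no letters. Elsewhere TGACGT and its reverse complement can overlap and may then count as 2. How many of the 0.928% held only such overlapping matches was not computed. That share is therefore not a rate for 2 separate matches. The GC box GGGCGG, searched on both strands, was found 4 times upstream of Ythdc1, 3 times upstream of Ythdf1 and 1 time upstream of Ythdf2, and 24.6% of all windows held it. CCAAT was found 1 time upstream of Ythdf1 and in 28.4% of all windows, and TATAAA in none of the 3 and in 9.14% of all. These matches describe letters in the windows and are not measured sites.

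On the exon lengths of the deposited table the order of levels was the same in both libraries, and the distances between neighbours differed. Untreated, Ythdf1 was highest at 17.3 RPKM, followed by Ythdf2 at 14.8, Ythdf3 at 6.86, Ythdc1 at 3.59 and Ythdc2 at 2.94. Every step between neighbours in that order was larger than its counting error, and the smallest was the 1.17-fold step from Ythdf2 to Ythdf1 (1.09 to 1.25). With cycloleucine the levels were 17.9, 17.1, 7.68, 7.23 and 2.37 RPKM in the same order. Ythdf1 and Ythdf2 then did not differ beyond counting error (ratio 1.05, 0.986 to 1.11), nor did Ythdf3 and Ythdc1 (1.06, 0.992 to 1.14). From unique reads alone, scaled by all unique gene reads, Ythdf1 stood at 26.6 and Ythdf2 at 19.9 RPKM untreated. With cycloleucine these levels were 28.3 and 23.0 RPKM. Ythdf2 has more reads placed at several positions, and leaving these out lowers it beside Ythdf1 in both libraries. How close the levels of Ythdf1 and Ythdf2 lie thus depends on whether such reads are counted. The step from Ythdc1 down to Ythdc2 was 1.22-fold untreated and 3.05-fold with cycloleucine (2.77 to 3.37). On the table's exon lengths, Ythdc1 made up 7.91% of the family's summed RPKM untreated and 13.8% with cycloleucine, and Ythdc2 6.47% and 4.53%. Among the 9613 features, Ythdc1 ranked above 32.8% by untreated level and above 55.7% by cycloleucine level, and Ythdf1 above 79.1% and 79.5%.

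**Figure D1:**
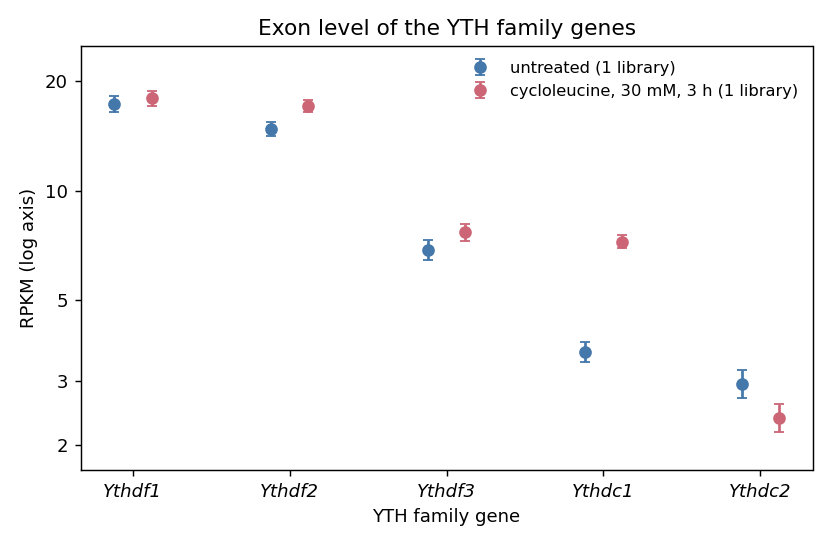
Exon level of each YTH family gene in RPKM on a log axis, with 1 point per library and exact Poisson 95% intervals as bars. The points of Ythdc1 lie at 3.59 and 7.23 RPKM, and those of Ythdf1 at 17.3 and 17.9 RPKM.

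Ythdf1 spans 180904377 to 180920949 of chromosome 2 (mm10, minus strand) and has 9 exons in the table and 3316 bases of exon. Its exon reads numbered 1554 untreated and 1899 with cycloleucine, a ratio of 1.04 after scaling by all gene reads (0.970 to 1.11), an interval that spans 1. Junction reads, those that span a splice of 2 exons, numbered 102 and 166 and were 1.38-fold higher (1.07 to 1.79). Intron reads numbered 83 and 118, a ratio of 1.21 (0.904 to 1.62). Exon reads of this abundant cytoplasmic reader were thus nearly level between the libraries, and its few junction reads were higher.

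Ythdf2, the decay-linked reader, spans 132184912 to 132212303 of chromosome 4, minus strand. It had 1832 and 2500 exon reads, a ratio of 1.16 (1.09 to 1.23), and 133 and 145 junction reads, a ratio of 0.926 (0.726 to 1.18). Its intron reads went the other way from its exon reads, with 166 untreated and 150 with cycloleucine, 1.30-fold lower (1.04 to 1.64). The intron share of its gene reads was 8.31% untreated (exact binomial interval 7.13% to 9.61%) and 5.66% with cycloleucine (4.81% to 6.61%). Ythdf2 was also the member with the most reads placed at several positions, with 86.9% and 84.6% of exon reads unique, where the other 4 had at least 98.5%. From unique reads alone its exon ratio was 1.16 (1.08 to 1.23) and its intron ratio 0.802 (0.629 to 1.02), whose interval spans 1.

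Ythdf3, on the plus strand of chromosome 3 from 16183212 to 16217037, had 998 and 1316 exon reads, a ratio of 1.12 (1.03 to 1.22). Its junction reads numbered 98 and 94, a ratio of 0.814 (0.607 to 1.09). Its intron reads numbered 273 and 382, a ratio of 1.19 (1.01 to 1.39), and from unique reads 1.34 (1.13 to 1.58). Introns made up 21.5% of the untreated gene reads of Ythdf3 and 22.5% of those with cycloleucine, and the intervals overlap those of Ythdc2, at 20.6% and 18.7%. From unique reads its exon ratio was 1.15 (1.06 to 1.25). Exon and intron reads of this reader were both higher, and its few junction reads were not.

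Ythdc1, the nuclear reader, lies on the plus strand of chromosome 5 from 86804221 to 86836659 and overlaps no other feature of the table. It had 1009 exon reads untreated and 2393 with cycloleucine. Junction reads numbered 222 and 649 and were 2.48-fold higher (2.13 to 2.90), more than the exon reads as a whole. Intron reads did not move with them: there were 140 and 166, a ratio of 1.01 (0.799 to 1.27). These are reads outside the table's exons, which for Ythdc1 include stretches that its coding mRNA skips, as described below. The intron share of Ythdc1 gene reads was 12.2% untreated (10.3% to 14.2%) and 6.49% with cycloleucine (5.56% to 7.51%). Junction reads made up 22.0% of its exon reads untreated (19.5% to 24.7%) and 27.1% with cycloleucine (25.3% to 28.95%). Unique reads gave ratios of 2.04 for exon, 2.54 for junction and 1.05 for intron reads. In the authors' deposited table the fold for Ythdc1 was 2.01, which is the ratio of the same RPKM values and not a separate measure.

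The intron to exon ratio of Ythdc1 was 2.00-fold lower with cycloleucine, a log2 change of -1.001 (-1.35 to -0.65). Among the 6803 annotated genes with 100 or more intron reads and 200 or more exon reads in total, 25 had a lower value, and the middle 95% lay between -0.66 and 0.72. By this ratio 2 of the 5 members were at least 1.5-fold lower, Ythdc1 and Ythdf2, where 3.51% of the 6803 genes were, and no member was at least 1.5-fold higher, where 5.16% were. Ythdf2 lay just past the threshold, at a log2 change of -0.59 (-0.94 to -0.26), and did not pass it with unique reads (-0.53) or with junction reads in place of exon reads (-0.27). Ythdf1 at 0.22, Ythdf3 at 0.09 and Ythdc2 at -0.17 had intervals that span 0.

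**Figure D2:**
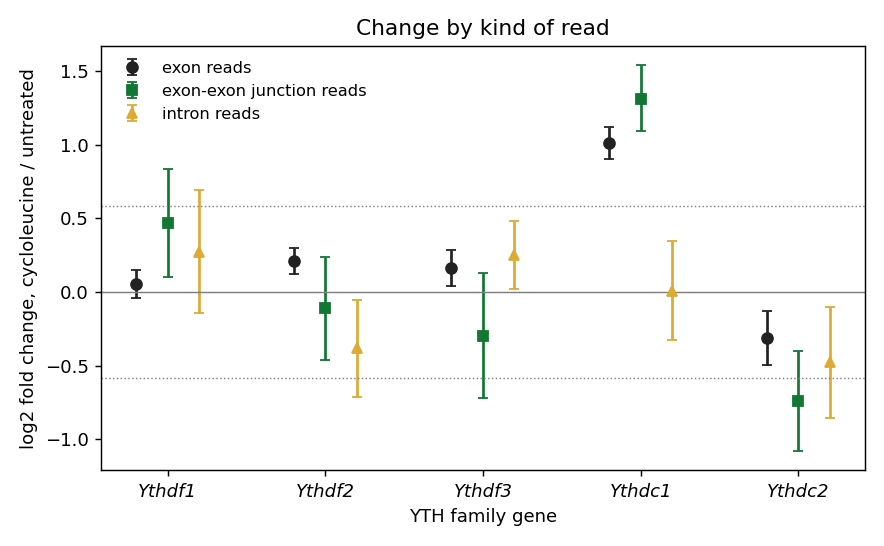
Log2 fold change of exon, exon-exon junction and intron reads of each YTH family gene, cycloleucine over untreated, scaled by gene reads, with exact 95% counting intervals as bars and dotted lines at 1.5-fold. In Ythdc1 the exon and junction points lie at 1.01 and 1.31 and the intron point at 0.01, while all 3 points of Ythdc2 lie below 0.

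What the table counts as exon differs between members, and most of all for Ythdc1. Its 8 annotated transcripts gave 32 exons and 10352 bases of exon. In GENCODE M21, whose span of the gene is the same, 3305 bases lie in exons of its 3 coding transcripts, and 75.8% of the 13651 exon bases belong only to its other transcripts, of which 4 are retained-intron forms. That share was lower in 99.1% of 8451 measured coding genes, whose median was 17.9%. The table's 10352 bases are fewer than these 13651, so the 75.8% and its rank describe GENCODE M21. The share within the table's own exons was not computed. In GENCODE M21 the share of exon bases found only in other transcripts was 0% in Ythdf1, 9.69% in Ythdf2, 1.47% in Ythdf3 and 18.7% in Ythdc2. For Ythdc2 the table has 1 transcript and 6299 bases of exon, where GENCODE M21 has 4 transcripts and 8878 bases. Its 18.7% therefore does not describe what the table counted. Exon reads of Ythdc1 can therefore include reads from stretches that its coding mRNA skips, and how many of them come from that mRNA was not measured. Intron reads of Ythdc1 leave out the stretches that the table counts as exon. They and the intron to exon ratio thus do not cover all its unspliced RNA. If every exon read came from the 3305 coding-transcript bases, the level would be 11.3 RPKM untreated and 22.7 RPKM with cycloleucine, an upper bound for that mRNA, and no lower bound is known. Levels of all members were also set on the exon length of their coding transcripts, with reads still counted over the table's exons. For Ythdc2 that length, 7215 bases, exceeds the table's 6299, so its level may be understated beside the others. On these lengths the order of levels was not the same in the libraries. Untreated it was Ythdf1 at 17.3, Ythdf2 at 16.4, Ythdc1 at 11.3, Ythdf3 at 6.96 and Ythdc2 at 2.56 RPKM. With cycloleucine it was Ythdc1 at 22.7, Ythdf2 at 18.9, Ythdf1 at 17.9, Ythdf3 at 7.79 and Ythdc2 at 2.07 RPKM. The place of Ythdc1 among the members therefore depends on the length used. So do its share of the family's summed RPKM and its rank among all features, given above. The ratio of its exon reads between the libraries does not depend on the length.

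Copies of the nonamers TACAGAGAA and TACAGAAAA, the letters that the methyltransferase METTL16 is known to recognise in Mat2a hairpins, were looked for on the sense strand of the members' GENCODE M21 transcripts. Of the 9 Ythdc1 transcripts 1 held a copy, and none of the transcripts of the other 4 members did. The Ythdc1 copy lies in a retained-intron transcript of 4006 bases, outside the exons of the coding transcripts, at chr5:86823598-86823627 on the plus strand of GRCm38, and is shown with its flanks because it is the only copy in the family, the nonamer in capitals.
Ythdc1 retained intron: caaatcattgTACAGAAAAggctaattcag
Among 6667 transcripts of any gene within 10% of that length, 10.1% held a copy. This is the rate for 1 transcript, while the copy was found by searching all transcripts of the 5 members. How often such a search finds at least 1 copy was not computed. GGACT, the most common core of N6-methyladenosine sites, occurred 1 time in the longest coding transcript of Ythdf1, 5 times in that of Ythdf2, 1 time in Ythdf3, 2 times in Ythdc1 and 3 times in Ythdc2. Per kilobase this was 1.21 for Ythdf2 and between 0.196 and 0.612 for the other 4, beside a median of 1.02 over 21405 genes. Methylation was not measured in these libraries.

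Ythdc2, the reader with a helicase, lies on the plus strand of chromosome 18 from 44828665 to 44889720 in the table and was the 1 member with lower exon reads. It had 502 exon reads untreated and 477 with cycloleucine, 1.24-fold lower per gene read (1.09 to 1.41). Junction reads numbered 180 and 127 and were 1.67-fold lower (1.32 to 2.11). Intron reads numbered 130 and 110 and were 1.39-fold lower (1.07 to 1.81), and the intron share, 20.6% and 18.7%, had overlapping intervals. From unique reads the intron ratio was 0.798 (0.602 to 1.06), an interval that spans 1. Exon, junction and intron reads of Ythdc2 were thus all lower, unlike those of Ythdc1.

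By junction reads alone, 1 of the 5 members, Ythdc1, was at least 1.5-fold higher, where 4.94% of 7810 annotated genes with at least 50 junction reads were, and 1, Ythdc2, was at least 1.5-fold lower, where 4.48% were. By intron reads no member passed 1.5-fold in either direction, where 4.6% of 9278 genes were higher and 3.54% lower. The junction to exon ratio of no member changed by 1.5-fold, where 2.67% of 7688 genes were higher and 2.78% lower by that size.

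Exon changes were set against each other in all 10 pairs of members, with exact conditional intervals that cover counting error only. The ratio for Ythdc1 was 1.94 times that for Ythdf1 (1.75 to 2.15), 1.74 times that for Ythdf2 (1.58 to 1.91), 1.80 times that for Ythdf3 (1.61 to 2.01) and 2.50 times that for Ythdc2 (2.15 to 2.89). The ratio for Ythdf2 was 1.44 times that for Ythdc2 (1.25 to 1.65). Among the cytoplasmic readers, Ythdf1 and Ythdf3 could not be told apart (Ythdf1 over Ythdf3 0.927, 0.832 to 1.03), nor could Ythdf2 and Ythdf3 (1.03, 0.933 to 1.15). The interval between Ythdf2 and Ythdf1 left 1 out by little (1.12, 1.02 to 1.22). For junction reads the ratio for Ythdc1 was 4.14 times that for Ythdc2 (3.12 to 5.50).

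Among all 9613 measured features the median log2 fold change, computed with 0.1 RPKM added to each value, was 0.0035, and the middle 95% lay between -0.58 and 0.64. Ythdc1, at 0.99 on this scale, lay above that range, and 73 features were higher. Ythdc1 was not at least 2-fold higher on this scale, although its plain ratio was 2.01, and 0.728% of the features were. No member was 2-fold lower, where 0.666% were. Ythdf2 at 0.21, Ythdf3 at 0.16, Ythdf1 at 0.05 and Ythdc2 at -0.30 lay inside the range. Among 5606 annotated features with at least 1000 exon reads over both libraries, which are counted more precisely, 0.446% were at least 1.5-fold higher and 0.214% lower, beside 2.16% and 1.87% of the 9081 annotated features. Ythdc1 was among these 5606 features, with 1009 and 2393 exon reads.

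**Figure D3:**
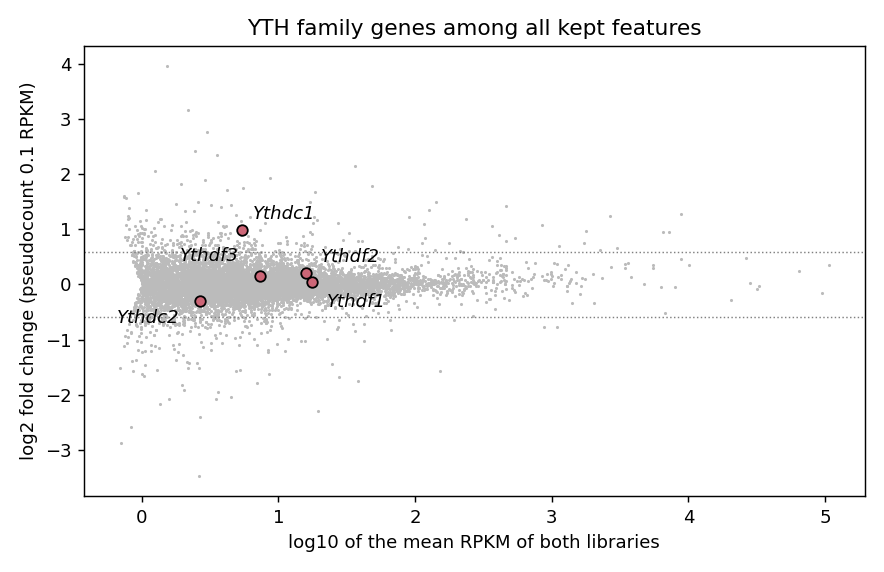
Log2 fold change against the log10 of the mean RPKM for the 9613 measured features in grey, with the YTH family genes in red and dotted lines at 1.5-fold. Ythdc1 lies at 0.99, above the upper line, and the other 4 members lie between -0.30 and 0.21.

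Genes whose 3 kinds of read moved most like those of a member were taken by the smallest distance over the log2 changes of exon, junction and intron reads, over 2 libraries and among 6285 annotated genes with enough reads of each kind. Mat2a had no junction count in 1 library and was not among them. Nearest to Ythdc1 was Eml6, of a family of microtubule-binding proteins, at a distance of 0.178, with 87 and 208 exon, 16 and 52 junction and 934 and 1209 intron reads. Next came Mtif3, a mitochondrial translation initiation factor (0.409), Tasp1, a protease that cleaves the histone methyltransferase KMT2A (0.470), Nedd9, an adhesion scaffold (0.499), and Map2k6, a kinase that activates p38 (0.502). All 5 had fewer junction reads than Ythdc1, so their distances are less precise. In 26 of the 6285 genes both exon and junction reads were at least 1.5-fold higher. Their median log2 change of intron reads was 0.27, and Ythdc1 was 1 of the 7 with the lowest intron change, down to -0.36.

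The other members had closer neighbours in this space, as they lay among most genes. Those of Ythdf1 were Hsh2d, Ahcyl2 and Prdm1 (0.0256 to 0.0577), and those of Ythdf2 were Minos1, Toe1 and Slx4 (0.0590 to 0.0997). Those of Ythdf3 were Pdpk1, Frrs1 and Kiz (0.0413 to 0.0666), and those of Ythdc2 were Slc35a1, Bid and Pom121 (0.0883 to 0.115).

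**Figure D4:**
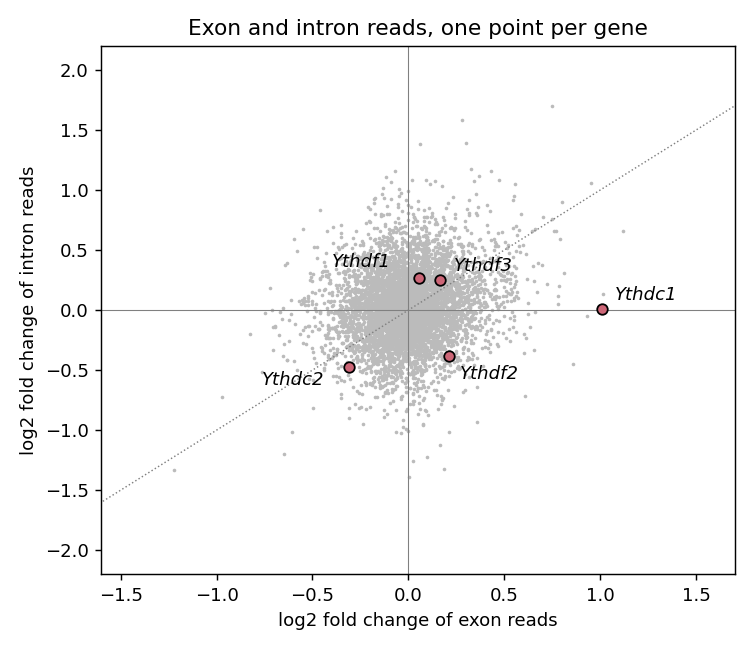
Log2 fold change of intron reads against that of exon reads for 6285 annotated genes in grey, of which 1 lies outside the axes, with the YTH family genes in red and a dotted line where both are equal. Ythdc1 lies at 1.01 on the exon axis and 0.01 on the intron axis, to the right of most genes.

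The rest of the N6-methyladenosine pathway was read through 7 lists with 62 genes, of which 56 were measured. Of these 1 was at least 1.5-fold higher and 0 were lower, beside 3.03% and 2.47% of all measured features, and their median log2 fold change was 0.02. The 1 gene was Rbm15, which recruits the writer complex to RNA, with 1493 and 2834 exon reads, 16.8 and 27.1 RPKM and a ratio of 1.61 (1.51 to 1.72). Its intron reads were higher too, 422 and 823, unlike those of Ythdc1. The writer list of 9 genes counts the methyltransferase gene Mettl16, at -0.11, along with the complex. Of the 9 genes 8 were measured, with a median of 0.03. Those other than Rbm15 ranged from -0.32 in the catalytic gene Mettl3 to 0.13. Of the erasers, which remove the mark, Fto stood at -0.01 and Alkbh5 at 0.09.

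No measured gene for a protein that works with the readers, or for another reader, passed 1.5-fold. Of all measured features 3.03% were higher and 2.47% lower by that size. Igf2bp1, Igf2bp3 and Rbm46 did not pass the filter, and Meioc was not in the table. The 9 nuclear partners of YTHDC1 had a median of 0.09, with 7 above 0, from Setdb1, a histone H3 lysine methyltransferase, at -0.21 to Cpsf6, a cleavage factor subunit, at 0.17. The 12 deadenylation and decay factors linked to YTHDF2 had a median of 0.02. They ranged from the deadenylase gene Cnot7 at -0.20 to Hrsp12, an adaptor that links YTHDF2 to an endonuclease, at 0.30. Of the Cnot7 exon reads 22.6% untreated and 21.9% with cycloleucine were unique, so that its value is uncertain. Of the YTHDC2 partners the 1 measured was Xrn1, at -0.06. The 10 other readers measured had a median of -0.03, from Prrc2a at -0.14 to Fxr1 at 0.26. The 14 genes of the translation initiation factor eIF3 had a median of 0.04. Its extremes were Eif3j1 at -0.45 and Eif3j2 at 0.48, near-identical copies with 4.31% to 8.77% of their reads unique, so that their separate values are uncertain.

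**Figure D5:**
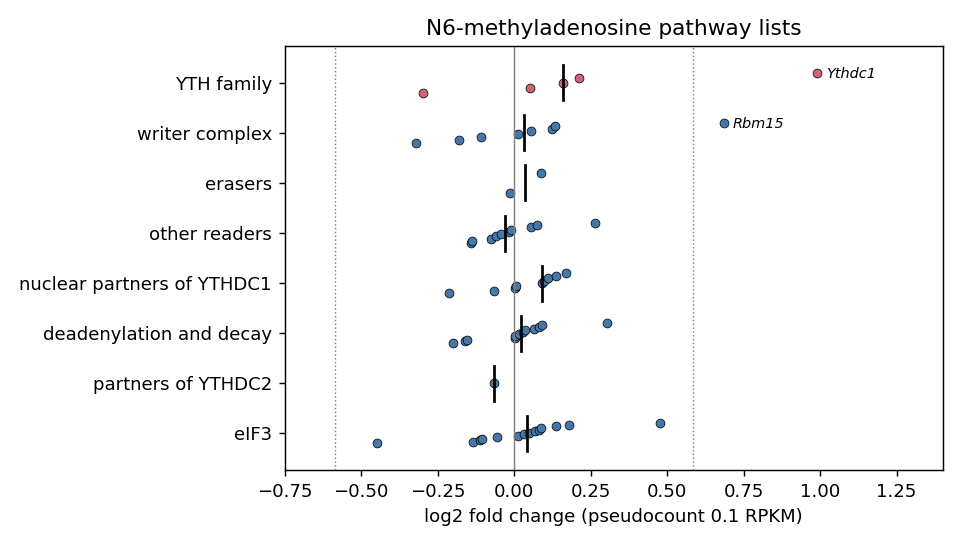
Log2 fold change of the measured genes of the YTH family and of 7 lists of the N6-methyladenosine pathway, 1 point per gene, with a black bar at each median and dotted lines at 1.5-fold. Ythdc1 at 0.99 and Rbm15 at 0.69 lie past the upper line.

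No feature of the table overlapped a member, and within 20 kb Ythdc1 and Ythdf3 had no neighbour. Near Ythdf2, Gmeb1 had 407 and 574 exon reads (log2 fold change 0.25) and the pseudogene Rps15a-ps4 had 35 and 59 reads (0.50). Near Ythdc2, Mcc had 16 and 20 exon reads and 365 and 610 intron reads. Near Ythdf1 the features Gm14342 and Nkain4 had 24 and 19, and 13 and 19, gene reads.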

How the data were processed

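RNA depleted of ribosomal RNA, fragmented by heat and size-selected after PCR, was sequenced on the Ion Proton system, per the labels. The authors deposited read counts per gene, both total and unique, for the whole gene, its exons, its introns and its junctions, per the file headers. They also deposited RPKM values, which equalled exon reads per exon length and gene reads in 43346 of 43346 features of each library, within a share of 0.0001 (gene reads for features with no annotated transcript). A deposited signed fold, entered as a score, is quoted once. The submitters' processing notes name mm10. Aligner, counter, annotation release and strand setting were not given in the sources used.

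The members, lists and thresholds were chosen with earlier results of these data known. Log2 fold changes used RPKM plus 0.1, and other ratios compared reads scaled by gene reads. Ratios of kinds of read had 0.5 added to each count. With 1 library per group no test was made, and a 1.5-fold size rule was used. Intervals are 95% exact intervals (Clopper-Pearson, Poisson or conditional) that cover counting error only. Reads copied by PCR carry no molecular identifier and may repeat 1 molecule. Named genes were the 5 members, list genes at least 1.5-fold different or otherwise the 2 that differed most, the 5 genes nearest to Ythdc1 and 3 nearest to each other member, and features within 20 kb with at least 10 reads. The software was Python 3.11.15, pandas 2.3.3 and scipy 1.17.1. The size rule and intervals were run on simulated Poisson counts, which hold counting error only. That run does not cover PCR copies or differences between cultures. Transcripts came from GENCODE M21 and promoters from RefSeq (GRCm38.p6). Mat2a lacks 1 value, its cycloleucine total of junction reads. The table had 0 columns of other libraries.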

Additional observations from a re-analysis of the deposited data

How the results depend on the processing

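No paired analysis was possible because only 1 library stood for each condition, and no replicate could be left out. Under 6 alternatives the log2 fold change of Ythdc1 lay between 0.84 and 1.01 and that of Ythdc2, which did not pass the 5 RPKM filter, between -0.33 and -0.22. The value outside the counting interval of Ythdc1 was the 0.84 with a pseudocount of 1 RPKM. At a 2-fold threshold 0 members were called higher. The log2 change of the intron to exon ratio of Ythdc1 lay between -1.30 and -0.95. With junction reads as the denominator that of Ythdf3 was 0.54, that of Ythdc2 0.26 and that of Ythdf2 -0.27, which like its -0.53 with unique reads was short of 1.5-fold. The background of 291 features past 1.5-fold upward and 237 downward became 150 and 108 with a pseudocount of 1 RPKM, 1262 and 1386 without the filter, 122 and 82 with at least 5 RPKM, 70 and 64 at 2-fold, and 25 and 12 with at least 1000 exon reads, a setting chosen after seeing the data. With unique reads 146 were lower. The deadenylation and decay median, 0.02, was -0.01 when scaled by exon reads. The other readers had 1 gene higher with no filter, Igf2bp3, with 4 and 15 exon reads, and eIF3 had 1 higher with unique reads. Per base of coding-transcript exon, also chosen after seeing the data, Ythdc1 was at 11.3 and 22.7 RPKM. Apart from what the settings themselves change, the cause was not tested.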

Other observations

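Intron and exon reads of the pathway genes were compared in the 53 listed genes with enough reads of both kinds. Their intron to exon ratio had a median log2 change of 0.0073, beside 0.02 in all 6803 genes. Of the 53 genes 1 was at least 1.5-fold higher and 3 were lower, where 5.16% and 3.51% of the 6803 were. The lowest was Nxf1, an mRNA export receptor that YTHDC1 is known to work with, named here after its value was seen. It had 84 and 42 intron reads beside 1858 and 2343 exon reads, a log2 ratio change of -1.33 (-1.91 to -0.78), and 6 of the 6803 genes were lower. The others were Eif3g at -0.63 and Cnot11 at -0.59. Rbmx, an RNA-binding protein of the nucleus, went the other way, with 52 and 119 intron reads beside 171 and 195 exon reads and a change of 0.998 (0.43 to 1.59). The cause was not tested.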
